A study of Drosophila melanogaster with 5 samples.

Results

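The ORFs described here are the spliced small open reading frames (smORFs) of non-coding RNAs in Drosophila S2 cells, a cultured line of embryonic origin with blood-cell features. An ORF of the ncRNA table was counted as spliced when its coordinates had 2 or more intervals, and as a smORF when these summed to 300 nt or less, the stop codon not included. The rule found 471 distinct ORFs, each counted once by chromosome, strand and coordinates, among 6436 distinct ORFs of the table, and no footprint or mRNA value was used in choosing them. They fill 576 of the 8095 rows of the table, since ORFs shared by several transcripts are listed once for each. They lie in 343 of the 982 transcripts, of which 321 matched 242 genes by their FlyBase identifier. Values were given for 465 of the 471 and were missing for 6, all on the heterochromatic scaffolds 2RHet and XHet (5 from asRNA:CR43480 and 1 from lncRNA:CR44043).

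Translation was read from ribosome footprints, the RNA fragments that ribosomes protect from nuclease digestion, in polysomes separated on sucrose gradients. The 4 footprint libraries came from large polysomes, from all polysomes after rRNA removal, from small polysomes profiled more deeply (here the extensive library) and from small polysomes. The fifth sample measured total cytoplasmic mRNA. Small polysomes are complexes of 2 to 6 ribosomes and large polysomes of 7 or more. The small and large polysome libraries came from the initial experiment of the paper. The paper treats the extensive and the all polysome libraries as independent experiments. No genotype, drug or time point separated the groups, and all cells received cycloheximide, which arrests elongating ribosomes, shortly before harvest and again in the wash and lysis buffer. Small polysomes had 2 libraries, the extensive one from a repeat of the experiment, and each other kind of sample had 1, so no p-values were computed; intervals cover counting error only, and reads without molecular identifiers are not independent molecules. Footprint density is given as RPKM, reads scaled by the length of the ORF and by the reads of the library, and reads per ORF were recovered from it. Of the blood cell marker genes looked for in the mRNA, 6 of 9 reached 5 RPKM, with Pxn highest at 327 RPKM, but Hml, a defining hemocyte gene, was at 0.019 RPKM. Of the neuronal, muscle and germline markers, 1 of 8 did, bam at 26.2 RPKM.

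Long non-coding RNAs are spliced and capped like mRNAs, and many reach the cytoplasm, where a chance ORF may meet ribosomes. A spliced ORF exists only in the processed RNA: its reading frame runs across an exon junction and is interrupted in the genome by the intron. Among the hosts are the Uhg genes, whose introns encode small nucleolar RNAs (snoRNAs) that guide rRNA modification while their exons form an RNA without a known long protein; roX1 and roX2, RNA components of the complex that raises transcription of the male X chromosome; and the iab RNAs of the bithorax complex, which controls segment identity.

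Most of the spliced smORFs crossed a single short intron. There were 441 with 2 intervals, 23 with 3, 3 with 4 and 4 with 5. The 394 distinct introns had a median of 98.5 nt, from 45 to 110624 nt, with 200 of 100 nt or less and 18 over 10000 nt. The reading frame was divided unevenly: the longest part held a median of 73.5% of the ORF, the shortest part had a median of 21 nt, and 66 members had a part of 3 nt or less, 14 of them a single nucleotide. On the same strand 270 members shared bases with another member, and the 471 formed 307 separate loci. The members are therefore not independent of each other.

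Spliced smORFs were longer than single-exon smORFs of the same table and lay closer to the 5′ end of their transcripts. Their median length was 114 nt (95% interval over ORFs 105 to 123; 38 codons), against 72 nt (72 to 75; 24 codons) for the 5793 single-exon smORFs. The start codon lay a median of 217 nt (188 to 253) from the transcript start in spliced and 508 nt (495 to 529) in single-exon smORFs. The spliced ORF was the most upstream ORF listed for its transcript in 25.5% of cases (21.8% to 29.6%), against 12.4% (11.5% to 13.2%) for single-exon ORFs. The share with mRNA above 0 RPKM was close in both kinds, 29.1% (25.2% to 33.3%) of spliced and 27.9% (26.8% to 29.1%) of single-exon smORFs. Among those, the median mRNA level was 2.59 RPKM for spliced and 1.00 RPKM for single-exon smORFs. The single-exon smORFs come from any transcript of the table, also those without a spliced smORF. The rule keeps only ORFs that cross a junction, which may by itself favour longer ones, and this was not tested.

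Footprints were sparse. Of the 465 spliced smORFs with values, 118 had at least 1 read in the 4 libraries and 347 had none. Following the study's methods, an ORF was called translated in a library at a footprint density of at least 11.8 RPKM, with at least 57% of its length covered and at least 5 reads. In large polysomes 7 spliced smORFs were called, 1.51% (0.731% to 3.07%) of them, where 1.13% of all ncRNA ORFs with values were. In all polysomes 14 were called, 3.01% (1.80% to 4.99%), against 2.24% of all ncRNA ORFs. The extensive small polysomes gave 28 calls, 6.02% (4.20% to 8.57%), against 4.61%. The small polysomes gave 12 calls, 2.58% (1.48% to 4.46%), against 2.08%. In at least 1 library, 31 were called, 6.67% (4.74% to 9.31%), against 5.13% of all ncRNA ORFs, so the spliced smORFs stood near the background in every library. RPKM was scaled to 2625000 reads in large polysomes, 3190000 in all polysomes, 9160000 in the extensive library and 5498000 in small polysomes. The deepest library had the most calls and the shallowest the fewest, but all polysomes had 14 calls and the deeper small polysomes 12.

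Calls were concentrated in few genes and were often made in 1 library only. The 31 ORFs formed 25 loci and came from 14 matched genes and 5 transcripts without a matched gene. Only 6 were called in all 4 libraries, all of them in lncRNA:CR42862, and 15 were called in a single library, 12 of these in the extensive one, 2 in small polysomes and 1 in all polysomes. Without the extensive library, 19 were called in at least 1 library. Leaving out lncRNA:CR42862, the calls were 1 in large polysomes, 8 in all polysomes, 22 in the extensive library and 6 in small polysomes. The 31 called ORFs had a median length of 108 nt (66 to 192), 6 were under 60 nt, and 8 were the most upstream ORF of a transcript. Some shared bases with single-exon smORFs that were also called, so a read may be counted on both kinds. FBtr0303021_3 overlapped 2 of these by up to 144 nt, and FBtr0333707_5 overlapped 3 by up to 75 nt. Others, among them FBtr0086842_1 and FBtr0332279_4, overlapped no single-exon smORF.

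**Figure D1:**
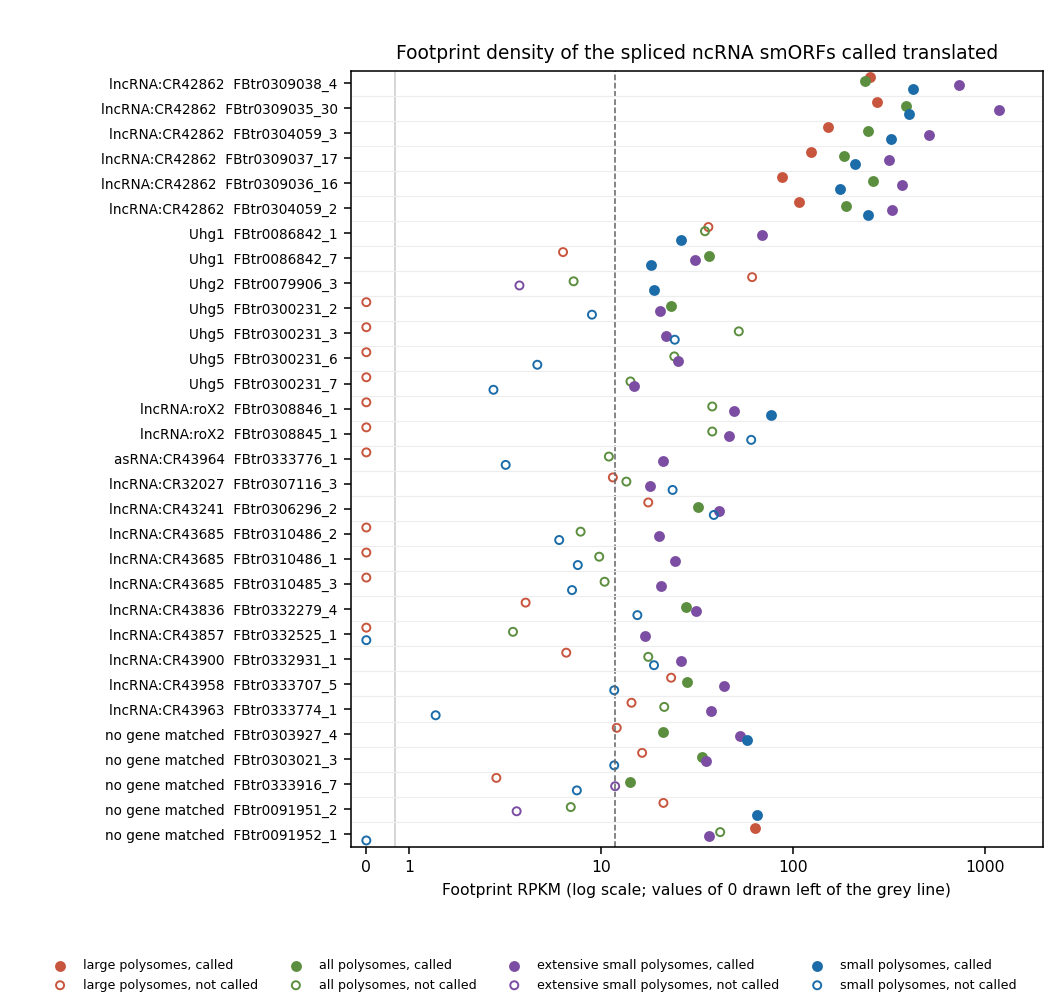
Footprint RPKM (x axis, log scale) of the 31 spliced ncRNA smORFs called translated in at least 1 library, 1 row per ORF, with 1 point per library, filled where the ORF was called in that library; the dashed line is the cut-off of 11.8 RPKM. The 6 ORFs of lncRNA:CR42862 lie at 88.2 RPKM or more in every library, while every other row mixes filled and open points.

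Spliced and single-exon smORFs were called at similar rates over the whole table, but some called ORFs of both kinds share bases. Single-exon smORFs were called in at least 1 library in 275 of 5482 cases, 5.02% (4.47% to 5.63%), a difference of 1.65 percentage points (-0.37 to 4.35). With mRNA above 0, the shares were 22.6% (16.4% to 30.3%) of 137 spliced and 16.8% (15.1% to 18.7%) of 1619 single-exon smORFs. Within the transcripts that held both kinds and had at least 5 RPKM of mRNA, where both kinds share the host RNA, the order was turned, with overlapping intervals: 47.3% (34.7% to 60.2%) of 55 spliced and 60.9% (52.3% to 68.9%) of 128 single-exon smORFs were called. The intervals for these transcripts did not overlap in large polysomes, where 6 of 55 spliced smORFs, 10.9% (5.10% to 21.8%), and 41 of 128 single-exon smORFs, 32.0% (24.6% to 40.5%), were called. Without lncRNA:CR42862, the large polysome values were 0 of 49 spliced smORFs (0% to 7.27%; 3 of 49 would be 6.12%) and 10 of 95 single-exon smORFs (10.5%, 5.82% to 18.3%), and these intervals overlapped. In lncRNA:CR42862 itself, 6 of 6 spliced and 31 of 33 single-exon smORFs were called in large polysomes. Among smORFs of 180 to 300 nt, 11 of 105 spliced ORFs, 10.5% (5.95% to 17.8%), were called, against 18 of 481 single-exon ORFs, 3.74% (2.38% to 5.84%), a difference of 6.73 points (1.75 to 14.2). In the other 3 length classes the interval of the difference included 0: it was 1.67 points (-2.05 to 8.85) from 30 nt to under 60 nt, 1.32 (-1.91 to 6.51) from 60 nt to under 120 nt and -1.56 (-3.87 to 3.43) from 120 nt to under 180 nt. These intervals treat ORFs as independent, and host mRNA was not matched within the classes. The 11 spliced ORFs called at 180 to 300 nt include 3 overlapping ones of lncRNA:CR43685. They also include FBtr0332279_4 and FBtr0332931_1, which overlap coding sequences on the same strand. As a measure of annotated proteins, 170 of the 216 spliced smORF coding sequences with mRNA above 0, 78.7% (72.8% to 83.6%), were called.

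**Figure D2:**
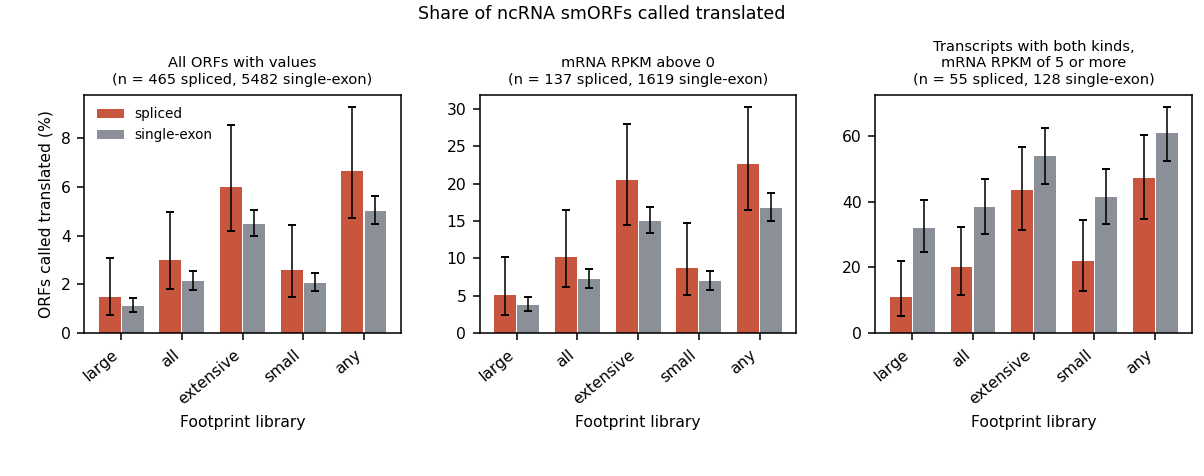
Percent of ncRNA smORFs called translated (y axis) per footprint library and in any library, for spliced and single-exon smORFs, with 95% Wilson intervals as error bars. Over all ORFs with values the bars for spliced smORFs stand slightly above those for single-exon ones with overlapping intervals. Within transcripts that hold both kinds at 5 RPKM of mRNA or more they stand below, 10.9% and 32.0% in large polysomes. Without lncRNA:CR42862, which is not drawn separately, these large polysome shares were 0% (0% to 7.27%) and 10.5% (5.82% to 18.3%).

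Host RNAs differed widely in how many of their spliced smORFs carried footprints. Members named after CR genes numbered 259 in 152 genes. Of the 258 with values, 47 had reads and 16 were called, 6.20%, where 6.67% of all members with values were. Of the 133 in RNAs named as antisense, 32 of 128 with values had reads and 1 was called, 0.781%. Every one of the 26 members of Uhg1 to Uhg5 had reads, and 7 were called, 26.9% (13.7% to 46.1%), against 5 of the 16 single-exon smORFs of the same genes, 31.2% (14.2% to 55.6%), and 22.6% of all spliced smORFs with mRNA above 0. Called members of Uhg5 share bases, so these 7 calls are not independent. Among the 25 in transcripts without a matched gene, 11 had reads and 5 were called, 20%. The 12 members of the bithorax RNAs iab4 and iab8 had no mRNA and no reads; 0 of 12 allows a share of up to 25%. The 13 members of yar, let7C, Irar and sphinx had no reads either; let7C is the precursor of the let-7 microRNA cluster, and its 2 members of 129 and 132 nt were at 0 RPKM of mRNA. These last counts follow mRNA: of the 25 members of both groups, only sphinx had mRNA above 0, at 1.54 RPKM.

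**Figure D3:**
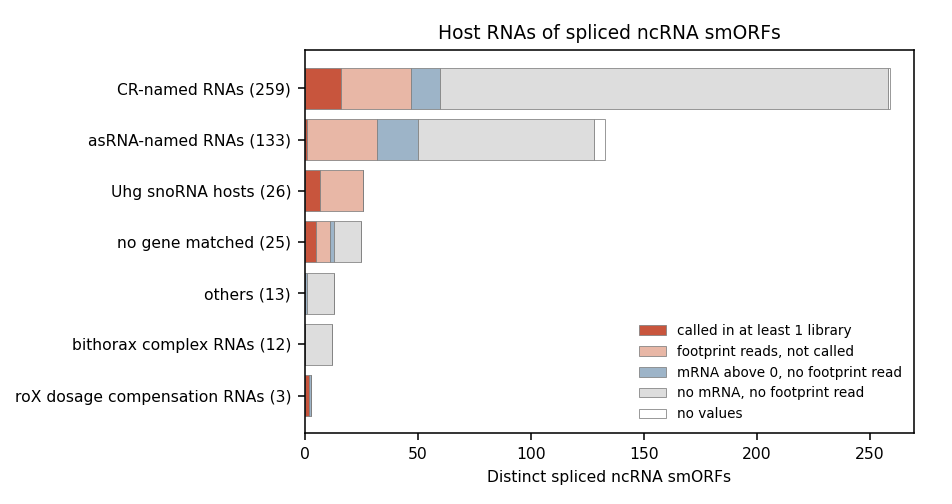
Number of distinct spliced ncRNA smORFs (x axis) per group of host RNAs, split by whether they were called translated, had footprint reads without a call, had mRNA but no read, had neither, or had no values. All 26 members of the Uhg group fall in the first or second class, whereas 198 of 259 members of CR-named RNAs had neither mRNA nor reads.

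One RNA, lncRNA:CR42862 on chromosome 3L, supplied most of the signal. Its 6 spliced smORFs of 20 to 96 codons took 74.0% of all reads on spliced smORFs in large polysomes (402 of 543), 64.5% in all polysomes (652 of 1011), 76.1% in the extensive library (4568 of 6004) and 72.5% in small polysomes (1470 of 2027). Its host mRNA was also the highest of any member, at 267 to 269 RPKM. The function of this RNA is not stated in the annotation used here.

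The longest spliced smORF of lncRNA:CR42862, FBtr0309038_4 (3L:225807-226154 on the plus strand, parts of 43 and 245 nt around a 60-nt intron), had 252.6 RPKM in large polysomes, 237 in all polysomes, 735 in the extensive library and 421 in small polysomes, all with complete coverage. FBtr0309035_30 (3L:229202-229641, parts of 43 and 53 nt around 344 nt) had 274, 389, 1182 and 404 RPKM in the same order, the highest density of any member in all but the small polysomes, where FBtr0309038_4 was higher. These 2 members were high in every library and highest in the extensive one. FBtr0304059_3, FBtr0309037_17, FBtr0309036_16 and FBtr0304059_2 ranged from 88.2 to 152 RPKM in large polysomes, from 184 to 261 in all polysomes, from 316 to 511 in the extensive library and from 175 to 323 in small polysomes. FBtr0304059_3 and FBtr0304059_2 cross the same 585-nt intron and overlap in different frames, so a read on the shorter ORF may be counted on both; FBtr0304059_3 had 646 reads in the extensive library and FBtr0304059_2 had 180.

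These 6 spliced ORFs had densities close to those of the 33 single-exon smORFs of lncRNA:CR42862, but the sets share bases and reads. FBtr0309038_4 overlapped 4 single-exon smORFs, by up to 168 of its 288 nt. FBtr0304059_5, which lies within it, had 1539 reads in the extensive library, where FBtr0309038_4 had 1939. FBtr0304059_2 and FBtr0304059_3 overlapped none. The medians of spliced and single-exon smORFs are thus not independent. The median was 138 RPKM for spliced and 138.5 RPKM for single-exon smORFs in large polysomes, 241 and 225 in all polysomes, 440 and 490 in the extensive library, and 284 and 286 in small polysomes. All 33 were called in at least 1 library, as were all 6 spliced ones. Footprints also fell inside the introns that the spliced ORFs cross. A 174-nt ORF wholly inside the 344-nt intron of FBtr0309035_30, FBtr0304059_31, had 144.5 RPKM in large polysomes, 204 in all polysomes, 542 in the extensive library and 251 in small polysomes. Reads thus fell on sequence that the spliced isoform lacks, and within the exonic parts the reads of spliced and unspliced isoforms cannot be told apart.

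The snoRNA host genes had reads on every spliced smORF, but at low density. Uhg1 encodes 9 members (45 to 165 nt, mRNA of 5.38 to 5.47 RPKM), of which 2 were called. FBtr0086842_1, 21 codons and the first ORF of Uhg1, had 36.3 RPKM in large polysomes, 34.8 in all polysomes, 69.3 in the extensive library and 26.0 in small polysomes, from 6, 7, 40 and 9 reads. It was above 11.8 RPKM in all 4 libraries, yet was called only in both small polysome libraries, with coverage of 0.853 and 0.820, since coverage was 0.443 in large and 0.557 in all polysomes. FBtr0086842_7, 20 codons near the 3′ end of the listed ORFs, had 6.35, 36.6, 30.9 and 18.2 RPKM in the same order and was called in all but large polysomes. The 5 members in the middle of Uhg1 between 87 and 165 nt stayed at or below 9.93 RPKM in every library, with no read in large polysomes.

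Uhg5 had the most called members of the snoRNA hosts, 4 of 5, but these overlap. FBtr0300231_6 lies wholly within the bases of FBtr0300231_7. Both had the same reads, 0 in large polysomes, 3 in all polysomes, 9 in the extensive library and 1 in small polysomes. FBtr0300231_2 and FBtr0300231_3 also share bases, so a read may be counted on both. The 4 called members had no read in large polysomes, where 3 reads would be 14.1 RPKM for the longest of them. They had 14.9 to 25.2 RPKM in the extensive library. FBtr0300231_2 (81 nt in 3 parts of 15, 61 and 5 nt) had 23.2 RPKM in all polysomes, 20.2 in the extensive library and 8.98 in small polysomes and was called in the first and second of these. FBtr0300231_3, a 10-codon ORF with a 3-nt first part, was fully covered in the extensive library at 21.8 RPKM but rested on 6 reads there, 5 in all polysomes and 4 in small polysomes. All 5 members came from 1 host with 5.82 RPKM of mRNA.

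In Uhg2 the libraries of small polysomes disagreed. FBtr0079906_1 and FBtr0330683_1, both of 36 codons, had 8 and 5 reads in the extensive library (8.09 and 5.05 RPKM), against 15 and 20 reads in small polysomes (25.3 and 33.7 RPKM), and none in large polysomes, where 3 reads would be 10.6 RPKM. Their coverage in small polysomes was 0.226 and 0.472, and neither was called in any library. FBtr0079906_3 (87 nt) had 14 reads in large polysomes (61.3 RPKM) but a coverage of 0.459, and was called only in small polysomes, with 9 reads, 18.8 RPKM and a coverage of 0.682. It had 3 reads in the extensive library. The ratio of extensive to small polysome density was 0.320 (0.118 to 0.804) for FBtr0079906_1 and 0.150 (0.0440 to 0.412) for FBtr0330683_1, below 1 in both, whereas it was 2.67 (1.27 to 6.25) for FBtr0086842_1 of Uhg1. Uhg3 and Uhg4 had reads on all 8 members and no call. Uhg3 had 18 reads in the extensive library and 23 in small polysomes, and Uhg4 had 36 in the extensive library and 1 in small polysomes.

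Both spliced smORFs of roX2 were called, and the one of roX1 had no read. The roX2 ORFs FBtr0308846_1 and FBtr0308845_1 are 11 codons long and overlap in different frames across the same 141-nt intron on the X chromosome, so a read may be counted on both. Their host transcripts were at 135 and 103 RPKM of mRNA. FBtr0308846_1 had 0 reads in large polysomes, where 3 reads would be 34.6 RPKM, 38.0 RPKM in all polysomes, 49.6 in the extensive library and 77.2 in small polysomes. FBtr0308845_1 had 0, 38.0, 46.3 and 60.6 RPKM in the same order. Both were low in large polysomes and high in small polysomes, with ratios of large to small of 0 (0 to 0.631) and 0 (0 to 0.835). At 14 and 11 reads in small polysomes and 15 and 14 in the extensive library, these densities rest on few reads. The deposited coverage of FBtr0308846_1 was 0.581 in large polysomes although no read was counted there, and the same 0.581 in all and in small polysomes, so its deposited coverage and reads do not match in large polysomes. The roX1 ORF FBtr0070635_3 had 0.887 RPKM of mRNA.

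Outside these hosts, 16 called ORFs came from 9 further matched genes and 5 transcripts without a matched gene. The longest of them were close to the 100-codon limit. FBtr0333707_5 of lncRNA:CR43958 on chromosome 4 (93 codons, parts of 131 and 148 nt) had 23.2 RPKM in large polysomes, 28.1 in all polysomes, 43.8 in the extensive library and 11.7 in small polysomes. It was called in all polysomes and the extensive library and lay just under the density cut-off in small polysomes. FBtr0303021_3, also on chromosome 4 (93 codons, parts of 144 and 135 nt around a 3019-nt intron), had 16.4, 33.7, 35.2 and 11.7 RPKM in the same order and was called in the same libraries. Its listed mRNA was 0.970 RPKM, the lowest of the called ORFs. Ratios of large to small polysome density were 1.98 (0.958 to 4.07) and 1.40 (0.614 to 3.06), and neither interval excluded 1.

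A second ORF of the same chromosome 4 cluster was the only spliced smORF outside lncRNA:CR42862 called in large polysomes. FBtr0091952_1 (10 codons, 4:488291-488377, a first part of 29 nt and a second part of 1 nt) had 63.5 RPKM in large polysomes from 5 reads, 41.8 in all polysomes from 4, 36.4 in the extensive library from 10, and no read in small polysomes, where 3 reads would be 18.2 RPKM. With a part of 1 nt, nearly all of its bases lie in 1 exon. It passed density and coverage in all polysomes and failed there on reads alone, as did the roX2 ORF FBtr0308846_1.

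On chromosome 3L, 2 called members with mRNA above 100 RPKM lay in transcripts that matched no gene in the annotation used here. FBtr0303927_4 (84 codons, parts of 72 and 180 nt, mRNA 114 RPKM) had 12.1 RPKM in large polysomes, 21.2 in all polysomes, 53.3 in the extensive library and 57.7 in small polysomes, and was called in all but the large polysomes. Its ratio of large to small polysomes was 0.209 (0.0874 to 0.433). FBtr0091951_2 (30 codons, mRNA 159 RPKM) had 21.2, 6.97, 3.64 and 64.7 RPKM in the same order. It had 3 reads in the extensive library and 32 in small polysomes, a ratio of 0.0563 (0.0110 to 0.180), and was called in small polysomes only, with a coverage of 0.580. Of the members with at least 10 reads in both libraries together, it had the lowest ratio of the extensive to the small polysome library.

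For 3 called members part of the ORF overlapped an annotated coding sequence on the same strand, so reads may belong to either. FBtr0332279_4 of lncRNA:CR43836 shared 177 of its 282 nt with CG10962, whose coding sequence had 66.5 RPKM in the extensive library; the smORF had 31.4 RPKM there. FBtr0333774_1 of lncRNA:CR43963 shared its 19-nt first part with Smr, a transcriptional corepressor, across an intron of 12882 nt. It had 5 reads in large polysomes, 9 in all polysomes, 45 in the extensive library and 1 in small polysomes. FBtr0333775_1 of the same gene has the same 113-nt part with a 4-nt part elsewhere, and had 4, 4, 12 and 0 reads. At least 33 reads of FBtr0333774_1 in the extensive library were thus counted on the 19 nt shared with Smr or across their junction. FBtr0332931_1 of lncRNA:CR43900 shared only 3 nt with Cam, the gene of calmodulin, and had 26.0 RPKM in the extensive library and 18.9 in small polysomes, with coverage of 0.812 and 0.284. Its mRNA was 119 RPKM, and its ratio of footprint to mRNA density in the extensive library was 0.218, the lowest of the 28 members called there. Without members that overlap a coding sequence, 28 of 461 ORFs were called in at least 1 library.

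The remaining called ORFs passed mainly in the extensive library. FBtr0306296_2 of lncRNA:CR43241 (parts of 104 and 4 nt, mRNA 4.20 RPKM) had 17.6 RPKM in large polysomes, 31.9 in all polysomes, 41.4 in the extensive library and 38.7 in small polysomes, and was called in all polysomes and in the extensive library; coverage was 0.368 in small polysomes. Of the 4 members of lncRNA:CR43685 on chromosome 3R, 3 overlapping ones were called, only in the extensive library, with 20.0 to 24.5 RPKM there, against 6.06 to 7.58 RPKM in small polysomes, and no reads in large polysomes. FBtr0307116_3 of lncRNA:CR32027 had 11.5 RPKM in large polysomes, 13.6 in all polysomes, 18.0 in the extensive library and 23.6 in small polysomes. Its density was highest in small polysomes, but only the extensive library covered enough of it, 0.760 against 0.498. FBtr0332525_1 of lncRNA:CR43857 had 14 reads in the extensive library, 1 in all polysomes and none in large or small polysomes. FBtr0333776_1 of asRNA:CR43964, which lies opposite CG15093, was the only called member of the antisense-named RNAs, with 11 reads and 21.1 RPKM in the extensive library against 1 read and 3.19 RPKM in small polysomes. FBtr0333916_7, in the chromosome 4 cluster, passed only in all polysomes, at 14.1 RPKM and a coverage of 0.606; in the extensive library it had 11.9 RPKM and a coverage of 0.553.

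Some members share a whole part with another member and differ in the rest. FBtr0306296_2 of lncRNA:CR43241 and FBtr0306297_3 share the same 104-nt first part and continue into different second exons of 4 and 82 nt. The first had 5, 11, 41 and 23 reads in large polysomes, all polysomes, the extensive library and small polysomes, and the second had 5, 11, 40 and 24. The counts were thus nearly equal although the second ORF was 78 nt longer, and only the shorter one passed the coverage rule. FBtr0333704_9 and FBtr0333705_7 of asRNA:CR43957 share an 80-nt part and had 34 and 31 reads in the extensive library and 11 and 9 in small polysomes, although they continue for 193 and 43 nt. In contrast, FBtr0303021_3 and FBtr0333916_4 of the chromosome 4 cluster share a 144-nt part, and the first had 90 reads and the second 28 in the extensive library, so that at least 62 reads of the first lay outside the shared part or across its junction. Of the 31 called ORFs, 6 had a part of 3 nt or less.

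Between fractions, spliced smORFs were more often less dense than denser in large than in small polysomes, as were ncRNA ORFs in general. Among the 26 members with at least 10 reads in both libraries together, 15 (57.7%) were lower in large polysomes, with an exact binomial interval of the ratio below 1, where 46.3% of 190 ncRNA ORFs were; 1 (3.85%) was higher, FBtr0079906_3 of Uhg2 at 3.26 (1.31 to 8.53), where 10% of ncRNA ORFs were. The median ratio was 0.438 for these members, and 0.465 for all ncRNA ORFs. All 6 members of lncRNA:CR42862 were lower, with ratios of 0.440 to 0.679. The longest of them, FBtr0309038_4, had a ratio of 0.600 (0.508 to 0.706). Set against the extensive library, a comparison added after seeing the data, 10 of the 15 members were again lower in large polysomes, among them all 6 of lncRNA:CR42862, 4 had an interval that included 1, and FBtr0091951_2 was higher. FBtr0079906_3 was higher against both libraries of small polysomes. The large polysome library shares its experiment with the small polysome library, and not with the extensive one. Of the 44 members with at least 10 reads in large polysomes and the extensive library together, 23 (52.3%) were lower, where 51.8% of 367 ncRNA ORFs were, and 1 (2.27%) was higher, where 4.63% were. Comparing densities across libraries depends on the divisor: with reads in annotated coding sequences in its place, each of these ratios to the small polysome library is multiplied by 0.718, and no member is then higher in large polysomes.

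Small polysomes were sequenced in 2 libraries, which differed in spliced smORFs by more than counting error. Of the 55 members with at least 10 reads in both together, 24 (43.6%) were higher in the extensive library, where 53.5% of 398 ncRNA ORFs were, and 5 (9.09%) were lower, where 6.03% were. The median ratio was 2.07 for members and 2.45 for all ncRNA ORFs, so a ratio above 1 was the general case. Beside these medians, FBtr0309035_30 of lncRNA:CR42862 stood at 2.93 (2.52 to 3.41) and FBtr0309038_4 at 1.75 (1.60 to 1.91), intervals that do not overlap within a single host RNA. FBtr0333774_1 of lncRNA:CR43963 had 45 reads in the extensive library and 1 in small polysomes, a ratio of 27.0 (4.61 to 1090), while FBtr0091951_2 and both 36-codon ORFs of Uhg2 lay below 1. Across the 118 members with a read, Spearman's rho of the densities was 0.60 between the extensive and the small polysome library, and 0.53 over the 112 outside lncRNA:CR42862; overlapping members share reads, so these points are not independent. Between all polysomes and small polysomes, 5 of 36 members (13.9%) were lower, where 16.7% of 222 ncRNA ORFs were, and 4 (11.1%) were higher, where 23.4% were. With reads in coding sequences as divisor, 13 members were lower and 2 higher. The all polysome library was an independent experiment with rRNA removed, so fraction, experiment and rRNA removal cannot be told apart here.

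Calls followed the level of the host RNA. All 31 called members had mRNA above 0, from 0.970 to 269 RPKM with a median of 8.41 RPKM. Of the 55 members whose host had at least 5 RPKM, 26 were called (47.3%), where 164 of 291 single-exon smORFs were (56.4%). Only 1 of the 55 had no read in any library, FBtr0332279_3 of lncRNA:CR43836 (117 nt), whose host was at 19.8 RPKM. Of the 328 members with mRNA at 0, 16 had a read and none was called. The one with most reads among these, FBtr0339931_2 (42 nt, no gene matched), had 36.3 RPKM in large polysomes, 14.9 in all polysomes, 54.6 in the extensive library and 4.33 in small polysomes, but covered no more than 0.200 of the ORF in any library: 21 reads in the extensive library lay on a few bases.

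Translation efficiency, here the ratio of footprint RPKM to the mRNA RPKM of the host exons, differed between libraries. It was 0 in most transcribed members only in large polysomes (76.6%), against 34.3% in the extensive library and 48.2% in small polysomes. Over the 137 members with mRNA above 0, its median was 0 in large polysomes, 0.433 (0.148 to 0.699) in all polysomes, 0.730 (0.325 to 1.08) in the extensive library and 0.158 (0 to 0.480) in small polysomes. For the 1619 single-exon smORFs with mRNA above 0 the median was 0 in each of the 4 libraries. With at least 5 RPKM of mRNA the intervals of both kinds overlapped: the median was 1.03 (0.660 to 1.59) for 55 spliced and 1.02 (0.873 to 1.22) for 291 single-exon smORFs in the extensive library, and 0.672 (0.480 to 0.890) for spliced and 0.448 (0.332 to 0.588) for single-exon smORFs in small polysomes. Among the called members the ratio spread widely in the extensive library. It was 0.218 for FBtr0332931_1 and 0.367 for the roX2 ORF FBtr0308846_1, 1.18 to 4.39 for the members of lncRNA:CR42862, 12.7 for FBtr0086842_1 of Uhg1 and 36.3 for FBtr0303021_3, whose host had under 1 RPKM. The mRNA value belongs to the whole transcript and not to the ORF, so a ratio can differ from that of the ORF itself.

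**Figure D4:**
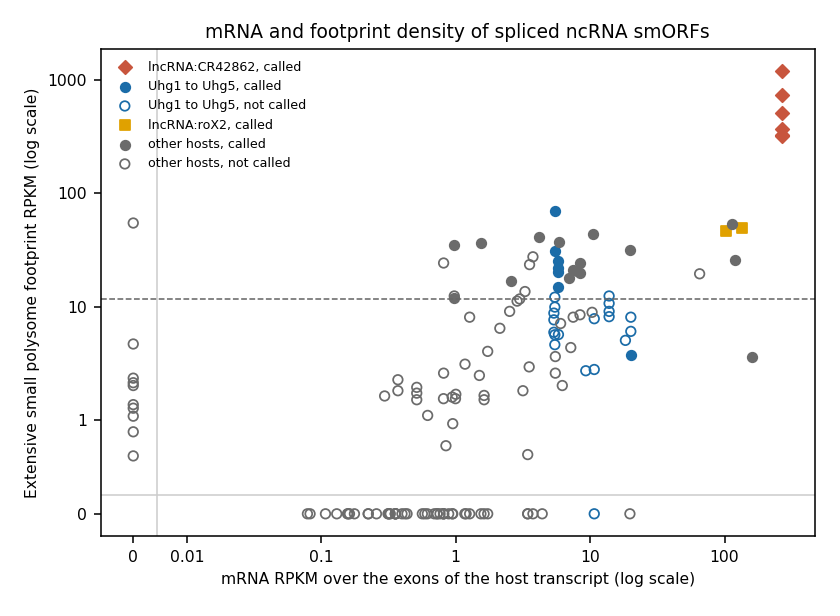
Footprint RPKM in the extensive small polysome library (y axis, log scale) against mRNA RPKM over the host exons (x axis, log scale) for the 147 spliced ncRNA smORFs with either value above 0; filled symbols are members called in at least 1 library, values of 0 are drawn beyond the grey lines, and the dashed line is 11.8 RPKM. Called members have mRNA from 0.970 to 269 RPKM, and the members of lncRNA:CR42862 lie alone at the upper right.

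Several well-transcribed members carried footprints without passing the rule. FBtr0075000_4 of hpRNA:CR32205, a hairpin RNA (56 codons, mRNA 65.3 RPKM), had 9.07 RPKM in large polysomes, 14.9 in all polysomes, 19.5 in the extensive library and 28.2 in small polysomes. It passed density and reads in 3 libraries, but covered at most 0.494 of the ORF. FBtr0079906_1 of Uhg2, described above, failed on coverage in small polysomes and on density in the extensive library. FBtr0300230_4 of Uhg4 (41 codons, mRNA 13.9 RPKM) had 12.4 RPKM in the extensive library with a coverage of 0.492. FBtr0300249_9 of Uhg3 (65 codons in 4 parts, mRNA 10.7 RPKM) was covered to 0.806 in small polysomes but at 11.2 RPKM. In all, 10 members in each of the large, extensive and small polysome libraries passed density and reads but not coverage.

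Spliced smORFs opposite a coding sequence had reads about as often as the rest, within counting error. Of the 79 with values that overlapped one on the opposite strand, 21 had a read, 26.6% (18.1% to 37.2%), against 93 of 382 that overlapped no coding sequence on either strand, 24.3% (20.3% to 28.9%). Whether the authors counted by strand is not given in the sources used here. Among the 28 members opposite a coding sequence of at least 11.8 RPKM in the extensive library, 23 had no read in any library. The host RNA of all 23 was at 0 RPKM of mRNA, so it was not detected. Of the 5 with a read, all but FBtr0334806_4 had mRNA above 0. One of the 23, FBtr0303864_1 of asRNA:CR31144 (81 nt), lies opposite RpL3, a ribosomal protein gene whose coding sequence had 1975 RPKM. No read was counted on FBtr0303864_1.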

How the data were processed

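Ribosome footprints of S2 cells were measured in 4 libraries and mRNA in 1 sample of total cytoplasmic mRNA, each grouped by its label. The authors mapped reads to FlyBase Release 5.50 with Bowtie and TopHat (versions not given), with at most 2 mismatches, keeping only reads that matched 1 place. Per ORF, the authors deposited RPKM (reads per kilobase per 1000000 reads) and coverage, the fraction of its bases under a footprint, from 0 to 1. For ncRNA ORFs the mRNA RPKM is that of the transcript's exons, and the highest over its transcripts was used. Coordinates are those of Release 5.50. Gene symbols came from transcript identifiers in the Ensembl release 115 annotation of BDGP6, whose coordinates were left aside.

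Reads were recovered as RPKM times summed length times the library's divisor, read from the smallest step of RPKM times length in coding sequences (2625000 reads in large, 3190000 in all, 9160000 in extensive small and 5498000 in small polysomes). All member values came out whole within 0.05. Translated ORFs were those with at least 11.8 RPKM, at least 0.57 coverage and a minimum of 5 reads. Shares have 95% Wilson intervals, differences of shares Newcombe intervals built from them, ratios of libraries exact (Clopper-Pearson) binomial intervals, and medians order-statistic intervals. A count of 0 was read as at most 3 reads. Python 3.11.15 with pandas 2.3.3 and scipy 1.17.1 was used, and the procedures were tested on simulated data. The uORF table was not used here. No genome of Release 5 was at hand, so no sequences are shown.

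ORFs named are, by rule, the 15 called ORFs with most reads, those called in large polysomes, FBtr0079906_1, the 5 uncalled ORFs with the highest mRNA, 1 per gene, and the 2 densest failing on reads alone. Others (the remaining called ORFs, host groups, pairs sharing a part) were chosen after their values were seen. Members and lists were chosen with earlier results of these data known. Alternatives concerned the call rule, the unit counted, length, overlap with coding sequences, the libraries joined, the mRNA minimum and pseudocounts.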

Additional observations from a re-analysis of the deposited data

How the results depend on the processing

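No paired analysis was run, because only small polysomes had a second library. Of 102 alternative values for counts, shares, differences and medians, 68 stayed within 1.5 times the count or within the interval of the value reported, and all 60 ratios of named ORFs stayed within their intervals with a pseudocount of 1 RPKM. The others were as follows. A coverage minimum of 0.40 gave 12 calls in large polysomes, and a cut-off of 25 RPKM gave 20 in at least 1 library. Counting every table row gave 18 calls in large polysomes, 24 in all polysomes, 45 in the extensive library, 23 in small polysomes and 49 in at least 1, and counting matched genes gave 1, 6, 13, 4 and 14. Without lncRNA:CR42862, chosen after seeing the data, the calls were 1 in large polysomes, 8 in all polysomes and 6 in small polysomes. Without the extensive library 19 members were called in at least 1. The share of transcribed members called was 34.1% at 1 RPKM of mRNA or more and 47.3% at 5 or more. The difference between spliced and single-exon smORFs was -9.09 points (-22.9 to 5.07) at 5 RPKM of mRNA or more, -1.56 from 120 nt to under 180 nt and 6.73 (1.75 to 14.2) at 180 to 300 nt. In transcripts with both kinds at 5 RPKM or more, a setting chosen after seeing the data, it was -13.7 (-28.6 to 1.90), and -6.55 (-22.6 to 10.4) without lncRNA:CR42862. Median efficiency in small polysomes was 0.507 at 1 RPKM of mRNA or more, 0.672 at 5 or more and 0.723 with the pseudocount, in all polysomes 0.736, 0.736 and 0.759, and in large polysomes 0.512 with the pseudocount. With reads in coding sequences as divisor, also added after seeing the data, 0 members were higher in large than in small polysomes, and 13 were lower and 2 higher in all than in small polysomes. With the extensive library in place of small polysomes, a setting also added then, 23 members were lower in large polysomes. The cause of these differences was not tested. Depth limits short ORFs most: 5 reads and not density set the call below an ORF length of 161 nt (large polysomes), 133 nt (all polysomes), 46.3 nt (extensive library) or 77.1 nt (small polysomes).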

Other observations

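Deposited coverage and recovered reads disagreed for a few spliced smORFs. Coverage was above 0 without a read for 2 members in large polysomes (both roX2 ORFs), 1 in the extensive library and 1 in small polysomes, and reads were present at a coverage of 0 for 1 member in large polysomes (FBtr0086842_7 of Uhg1) and 1 in all polysomes. FBtr0339930_6, a 279-nt ORF without a matched gene or listed mRNA, had 12 reads in the extensive library that covered 0.0108 of its length.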
